A study of Mus musculus with 24 samples.

Results

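The receptors described here are 10 genes by which macrophages bind and take up particles, lipids, sugars and dead cells. They are the scavenger receptors Mrc1, Msr1, Cd36, Cd163 and Stab1, the Dectin family C-type lectins Clec7a, Clec4n, Clec4e and Clec4d, and the receptor kinase Mertk. The rule lists them by name, and each was found by its Ensembl identifier among the 55421 genes of the count table. edgeR's filter on low counts kept 16593 genes for testing, among them 9 of the 10 receptors, and removed Cd163.

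Poly(A) RNA was sequenced from bone marrow-derived macrophages (BMDMs) of WT mice (C57/B6/J) and of AhR-KO mice. The AhR-KO animals carried the constitutive allele Ahr tm1Bra (strain B6.129-Ahr tm1Bra/J), so AhR, the aryl hydrocarbon receptor, was missing in every cell and throughout differentiation. All bone marrow was cultured with GM-CSF at 10 ng/ml and TGF-β at 2 ng/ml, conditions that the study used to make alveolar-like cells. The groups were WT unstimulated, AhR-KO unstimulated, WT LPS and AhR-KO LPS, each with 6 libraries, where LPS (lipopolysaccharide, a bacterial cell wall component) was added at 97 EU/ml on day 6 for 24 h. The treatment protocol, which is the same text for all samples, ends with the Ca2+ ionophore A23187 at 5 µM for 10 min. The study's methods name male and female mice, and the labels give neither sex nor age of the animal behind a library. WT libraries 34 (unstimulated) and 38 (LPS) were near 0 for Y-linked genes, while the other WT libraries and all AhR-KO libraries held Y-linked counts. The cells are a culture model of alveolar macrophages and not cells taken from lung.

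Scavenger receptors are surface proteins that bind modified lipoproteins and other polyanionic or lipid ligands and carry them into the cell. C-type lectins of the Dectin family recognise fungal and mycobacterial sugars and glycolipids, and most signal through an ITAM motif, of their own or of the Fc receptor γ chain, to the kinase Syk. Mertk belongs to the TAM kinases, which bind phosphatidylserine on dying cells through the bridging proteins Gas6 and Pros1. In lung, macrophages of the airspaces use such receptors to clear surfactant, microbes and apoptotic cells, and CD206, the product of Mrc1, and Mertk are among their usual surface markers.

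Libraries held between 45106052 and 76992663 counts, and the 60 pairs of libraries within groups each stood apart beyond sampling error (chi-square per degree of freedom at least 16.3). Macrophage markers were present, with 8 of 8 genes at a mean of at least 1 CPM in every group, and alveolar macrophage markers with 10 of 10 in both unstimulated groups and 9 of 10 in both LPS groups. CPM are counts per 1000000 counts of a library scaled by TMM factors. The numbers of the libraries, 17 to 40, form 3 runs of 8 with 2 libraries of every group in each, which the labels do not call batches. Libraries differed in the slope of log2 CPM on log2 gene length, which averaged 0.03, 0.255 and −0.1 over the 3 runs. Libraries 33, 19, 37 and 39 had the lowest slope of their groups, and values of the receptors that follow these libraries are given below. Counts of Ahr itself, 28.3 ± 12.2 CPM (SD, n = 6) in WT and 7.42 ± 2.39 in AhR-KO without LPS and 16.8 ± 7.64 and 43.1 ± 16.2 with LPS, cover all exons of the gene and so do not check the deletion. Differences between groups below are log2 fold changes from edgeR's quasi-likelihood test with Benjamini-Hochberg adjustment over all tested genes, and a gene was called where the adjusted p was at most 0.05 and the log2 fold change was 1 or more in size. The study names 6 animals a group from 1 experiment, but the labels do not tie libraries to animals, so p-values measure the spread between these libraries.

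Between the genotypes, Cd36 was the receptor that was called. It was called higher in AhR-KO BMDMs in both states, while none of the other 8 tested receptors was called in either. Those 8 also stayed without a genotype call in the 37 other fits, some only because the fold was under the threshold. Without LPS the adjusted p over these fits ran from 0.000287 to 0.547 for Clec7a and from 0.000759 to 0.783 for Clec4n. After LPS it ran from 0.000492 to 0.492 for Clec7a and from 0.00563 to 0.525 for Clec4e. Without stimulation 1 of 9 receptors was called higher, where 4.48% of all tested genes were called (0.916% higher, 3.57% lower). After LPS it was again 1 of 9, against 8.36% of all tested genes (2.17% higher, 6.19% lower). The median log2 fold change of the 9 was 0.46 without stimulation and 0.25 after LPS, beside −0.01 and −0.05 over all tested genes. LPS moved more of them, with 7 of 9 called in WT (6 higher, 1 lower) and 7 of 9 in AhR-KO (6 higher, 1 lower). The share of all tested genes called was 24.9% in WT (13.2% higher, 11.8% lower) and 30.8% in AhR-KO (15.1% higher, 15.7% lower). Medians over the 9 were 1.62 and 1.92 with LPS, beside 0.03 and −0.03 over all tested genes. As the RNA is from whole cultures, fewer cells of a type and less RNA per cell cannot be told apart in any of these values.

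**Figure D1:**
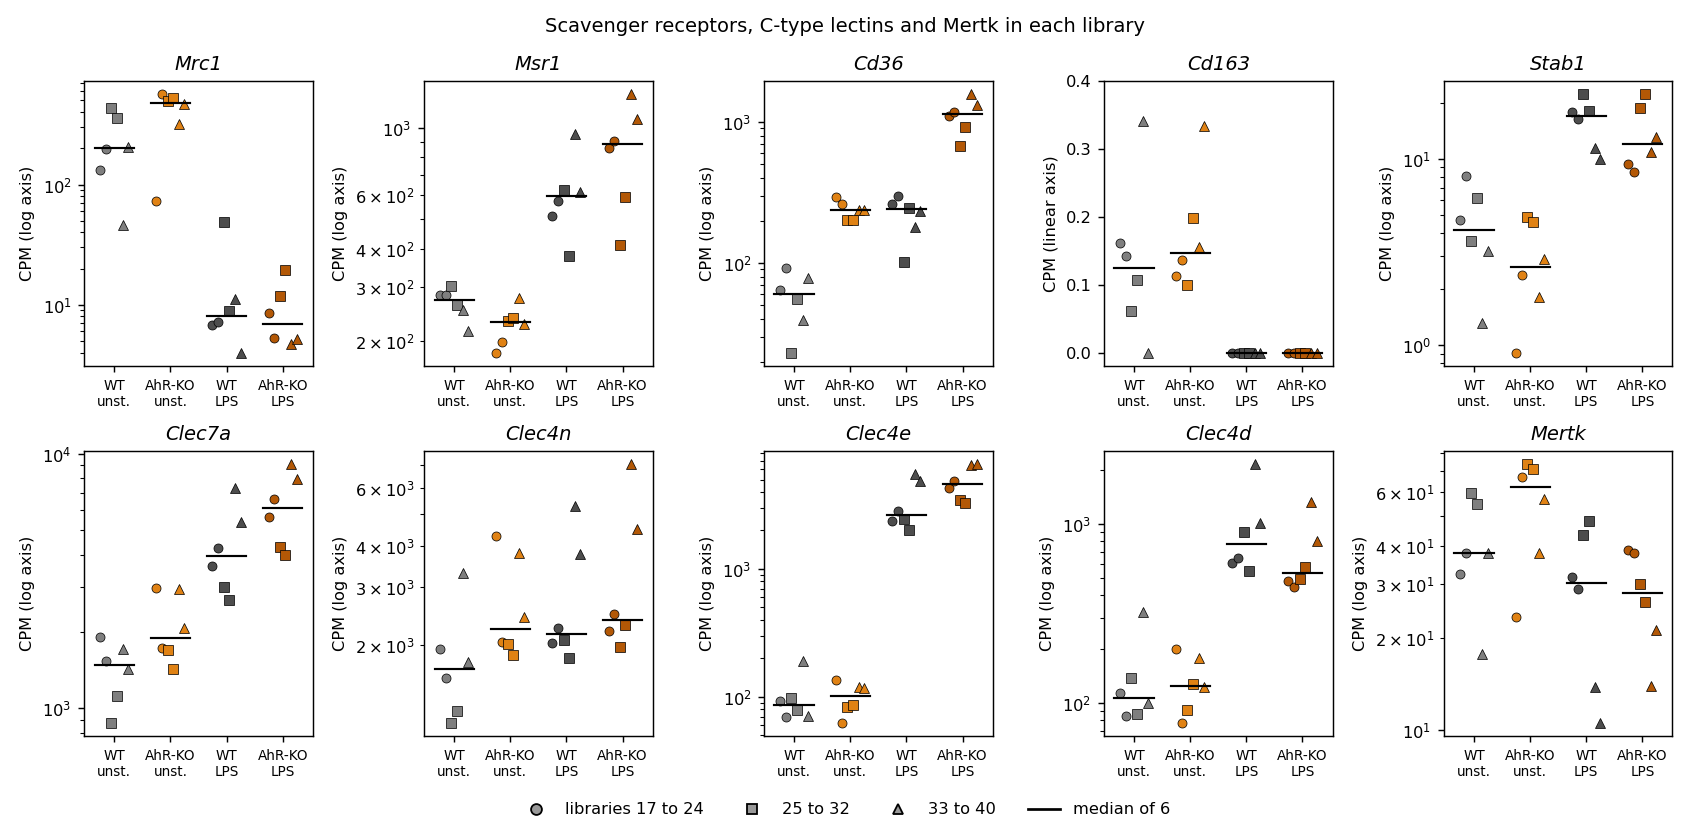
Level of each of the 10 receptors in each of the 24 libraries, in CPM on log axes (linear for Cd163), by group, with bars at the median of 6 and marker shapes for the 3 runs of library numbers. Cd36 is the panel in which AhR-KO libraries lie above WT in both states (201.8 CPM or more against 91.64 or less without LPS), and Mrc1 is the tested receptor that was called lower with LPS.

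Cd36 is a class B scavenger receptor for oxidised lipoproteins, long-chain fatty acids and surfactant lipids (ENSMUSG00000002944, chromosome 5, 17781690 to 17888801 of mm10, minus strand). Its level in unstimulated WT BMDMs was 22.9 CPM in the lowest, 60.2 in the median and 91.6 in the highest library. In unstimulated AhR-KO BMDMs these were 202, 236 and 293 CPM. After LPS they were 101, 241 and 297 CPM in WT and 677, 1144 and 1581 in AhR-KO. All 6 AhR-KO libraries thus lay above all 6 WT libraries in each state, a separation that 5.15% and 7.11% of all tested genes showed in either direction. The unstimulated AhR-KO range overlapped that of LPS-stimulated WT cells.

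The means of Cd36 were 58.8 ± 25.3 and 239 ± 35.4 CPM (SD, n = 6) without LPS, a log2 fold change of 2.02 (standard error 0.29, 95% interval 1.43 to 2.62, adjusted p = 4e-05 in edgeR). With LPS they were 221 ± 69.9 and 1131 ± 312 CPM, a log2 fold change of 2.36 (standard error 0.29, interval 1.76 to 2.96, adjusted p = 4.1e-06). LPS itself raised Cd36 by 1.91 in WT (adjusted p = 9.1e-06) and by 2.24 in AhR-KO (adjusted p = 7.6e-07). The LPS response differed between genotypes by 0.34, with an interval from −0.47 to 1.14 and an adjusted p of 0.94, so a difference of up to 1.14 in this response is within the interval. Genotype differences within the 3 runs, as means of log2(CPM + 0.5) over 2 libraries a group, were between 1.85 and 2.49 without LPS and between 2.03 and 2.80 with it. Among the 152 genes called higher in unstimulated AhR-KO cells, Cd36 was number 62 by fold change and number 9 by level in AhR-KO cells. Among the 360 called higher after LPS it was number 88 by fold change and number 22 by level. The call held in all 37 other fits, in which the log2 fold change was 1.86 to 2.19 without LPS and 2.12 to 2.47 with it.

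Markers of other cell types moved with genotype in the same libraries. The summed level of 10 neutrophil markers was 1691 to 12716 CPM in WT and 259 to 809 in AhR-KO without LPS, and 728 to 8436 and 141 to 1020 with LPS. Of these markers 8 and 6 of 10 had a mean of at least 1 CPM in unstimulated WT and AhR-KO cells, and 6 and 5 of 10 after LPS. Ly6g, which defines neutrophils, had means of 4.12 and 0.416 CPM without LPS, and Mpo was near 0 at 0.0716 and 0.0688. The sum of 10 dendritic cell markers was 60.2 to 186 CPM in WT and 20.2 to 30.8 in AhR-KO without LPS, and 920 to 2878 and 156 to 1072 with it. Single dendritic markers went both ways without LPS, with 6 of the 9 tested called lower in AhR-KO (3.57% of all tested genes), such as Flt3 with means of 1.55 and 0.0159 CPM, and 2 called higher (0.916% of all tested genes), Clec9a (2.53 and 6.42) and Batf3 (5.26 and 12.4). After LPS 6 were called lower and 0 higher (6.19% and 2.17% of all tested genes), and Xcr1 was near 0 in every group. Mast cell and basophil markers summed to 6.24 to 23.8 CPM in WT and 2.01 to 4.41 in AhR-KO without LPS and to 16.2 to 53.6 and 4.93 to 13.3 with it, and those of T, B and NK cells to at most 8.49 in any library. The 7 erythroid and megakaryocyte markers summed to 25 to 80.1 CPM in WT and 88.5 to 182 in AhR-KO without LPS. With LPS these sums were 114 to 259 and 76.1 to 148 CPM. Among these markers Pf4 was called higher (47.7 and 125 CPM) and Itga2b lower (2.09 and 0.207) without LPS. After LPS edgeR called 1 lower (6.19% of all tested genes), while limma-voom called 0 lower in either state. Of 10 fibroblast and endothelial markers, which summed to 5.45 to 39.3 and 1.43 to 12.5 CPM without LPS and 7.15 to 47.2 and 15.9 to 61.4 with it, Pecam1 was called lower without LPS (16.3 and 3.59) and Dcn higher with it (0.822 and 11.9), and Cdh5, which defines endothelium, had a mean of at most 0.527 CPM in any group. Of the 10 alveolar macrophage markers, 2 were called higher in AhR-KO cells without LPS (0.916% of all tested genes), Siglecf (62.0 and 184 CPM) and Ear2 (686 and 1918), and 2 with it (2.17% of all tested genes), Ear2 (170 and 674) and Car4 (1832 and 3674, under the fold threshold in limma-voom and with run as a factor). Their sum was 9306 to 14068 CPM in WT and 11537 to 14446 in AhR-KO without LPS and 4904 to 9509 and 8355 to 12361 with it. Of the 8 macrophage markers, 0 were called by genotype without LPS, with 4 at an unadjusted p under 0.05 in edgeR. After LPS 1 was called higher in AhR-KO (2.17% of all tested genes) and 0 lower, namely Fcgr1 (482 and 1139 CPM). The part of these cells and markers in the genotype differences of the receptors was not tested.

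The sequence upstream of the Cd36 start site is shown because this gene differed by genotype, and AhR binds DNA with Arnt at a GCGTG core. RefSeq (GRCm38.p6) places the start site 52.9 kb inside the gene as Ensembl draws it, and Cd36 is known to use several alternative first exons. The window runs from 250 bases before to 50 after the RefSeq start, at chr5:17835847-17836146 on the minus strand, with a motif match in capitals.
Cd36: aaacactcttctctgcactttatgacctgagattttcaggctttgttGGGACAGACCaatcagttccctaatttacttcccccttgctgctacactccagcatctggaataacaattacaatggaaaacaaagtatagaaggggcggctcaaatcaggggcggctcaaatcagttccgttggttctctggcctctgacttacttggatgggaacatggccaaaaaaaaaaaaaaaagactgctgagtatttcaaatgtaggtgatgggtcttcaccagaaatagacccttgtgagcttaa

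A set of 6 sequence motifs were searched on both strands in the 8 receptor promoters that the RefSeq table holds, those other than Msr1 and Clec4n. GCGTG was not found in the Cd36 window and is in 32.4% of all 32851 promoters of this length. The capitals mark its only match, GGGACAGACC, to an NF-κB pattern (GGG and CC with any 5 bases between), at −203 from the start site, and 50.8% of all promoters hold that pattern. TGANTCA (AP-1) is in 7.81% of promoters, TTGCNNAA (C/EBP) in 10.8%, GAGGAAGT (PU.1) in 3.2% and a PPAR repeat (AGGTCA, any 1 base, AGGTCA) in 0.0396%, and none of these is in the Cd36 window. A match is a description of letters and not of binding, and no match says nothing about sites elsewhere.

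Msr1, the class A scavenger receptor for modified lipoproteins and bacterial surfaces (ENSMUSG00000025044, chromosome 8, 39581685 to 39642673, minus strand), rose with LPS in both genotypes. It had 215, 272 and 301 CPM (lowest, median, highest) in unstimulated WT and 182, 230 and 277 in unstimulated AhR-KO cells, and 379, 596 and 952 in WT and 412, 882 and 1292 in AhR-KO after LPS. No LPS library overlapped the unstimulated libraries of its genotype. The log2 fold change by LPS was 1.2 in WT (standard error 0.22, adjusted p = 0.00013) and 1.92 in AhR-KO (standard error 0.23, adjusted p = 2.2e-07). In WT the fold was below the threshold when total library size replaced TMM, at 0.82, and without the 5 libraries of lowest length slope, at 0.91. The difference of these responses, 0.72 (interval 0.08 to 1.37), had an unadjusted p of 0.03 and an adjusted p of 0.28. Genotype differences were −0.24 without LPS (interval −0.69 to 0.22, adjusted p = 0.89) and 0.49 with it (interval 0.03 to 0.94, adjusted p = 0.18).

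Mrc1 encodes the mannose receptor CD206, which takes up mannosylated glycoproteins (ENSMUSG00000026712, chromosome 2, 14229392 to 14332057, plus strand, with the microRNA gene Mir511 inside it on the same strand). Its level was 46.2, 202 and 430 CPM (lowest, median, highest) in unstimulated WT and 73.1, 480 and 566 in unstimulated AhR-KO cells. After LPS it was 3.94, 8.08 and 48.8 CPM in WT and 4.67, 6.90 and 19.5 in AhR-KO. The groups of AhR-KO cells did not overlap, and in WT the highest LPS library lay just above the lowest unstimulated one. LPS lowered Mrc1, with a log2 fold change of −3.98 in WT (standard error 0.66, adjusted p = 3.2e-05) and −5.47 in AhR-KO cells (standard error 0.70, adjusted p = 7.8e-07). The responses differed by −1.50 (interval −3.21 to 0.22, adjusted p = 0.49), a difference called in 1 of the other fits, at −1.53 (adjusted p = 0.0439), which took the main axis of residual variation between libraries as a covariate and was chosen after the data were seen. Genotype differences of Mrc1 were 0.84 without LPS (interval −0.38 to 2.05, adjusted p = 0.70) and −0.66 with it (interval −1.87 to 0.56, adjusted p = 0.63). WT LPS library 29, which holds the 48.8 CPM, moved 3 of these values of Mrc1 by more than 1.5-fold. Without it the response to LPS in WT was −4.91, the difference of the responses −0.56 (adjusted p = 0.971) and the genotype difference after LPS 0.27.

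Stab1 (stabilin-1, ENSMUSG00000042286, chromosome 14, 31139013 to 31168641, minus strand), a receptor that clears modified lipoproteins and matrix fragments, was low and rose with LPS. It had 1.32, 4.17 and 8.09 CPM in unstimulated WT and 0.906, 2.64 and 4.89 in unstimulated AhR-KO cells, and 10.0, 17.1 and 22.3 in WT and 8.55, 12 and 22.2 in AhR-KO after LPS. The LPS libraries lay above the unstimulated ones in each genotype. The log2 fold change by LPS was 1.82 in WT (adjusted p = 0.00072) and 2.24 in AhR-KO cells (adjusted p = 6.9e-05). By genotype it was −0.63 without LPS (interval −1.43 to 0.17, adjusted p = 0.59) and −0.21 with it (interval −1.01 to 0.58, adjusted p = 0.88). In the first run of library numbers the genotype difference of Stab1 was −1.73 without LPS and −0.89 with it, and in the other runs it was between −0.01 and 0.16. The gene overlaps Nt5dc2 on the opposite strand.

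Cd163, the haemoglobin and haptoglobin receptor (ENSMUSG00000008845, chromosome 6, 124304656 to 124330527, plus strand), was near absent. The 6 libraries of unstimulated WT held 50 counts and those of unstimulated AhR-KO cells 67, means of 0.135 and 0.173 CPM, and 1 WT library had none. After LPS no count was found in any of the 12 libraries. With a floor of 3 counts over a group, which covers counting error only, Cd163 was at least 14.8-fold lower after LPS in WT and at least 17.1-fold lower in AhR-KO cells. The gene was not tested in the main model. Without the filter on low counts it was called lower with LPS in WT (adjusted p = 0.000985) and in AhR-KO (adjusted p = 0.000549).

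**Figure D2:**
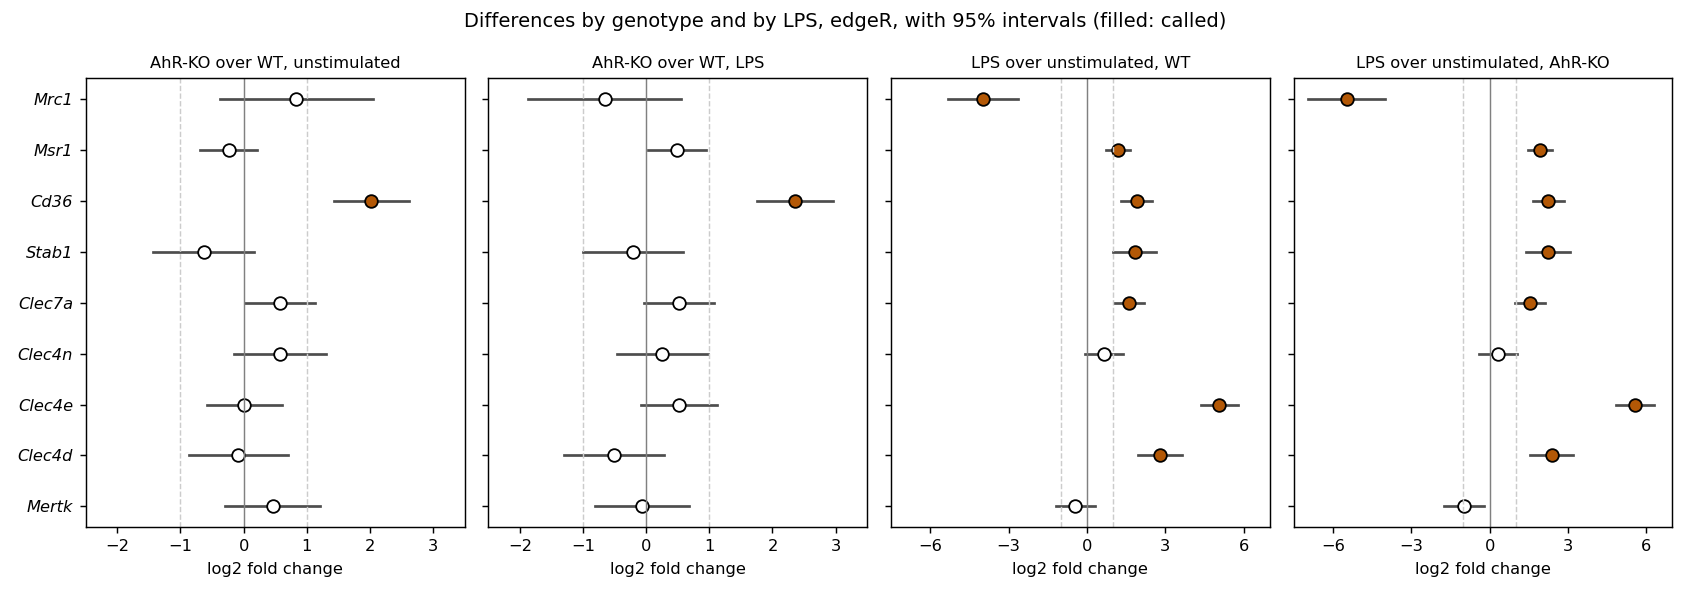
Log2 fold change of the 9 tested receptors in edgeR with 95% intervals, AhR-KO over WT on the left and LPS over unstimulated on the right. Filled points were called and dashed lines mark a fold change of 1 in either direction on the log2 scale. By genotype Cd36 alone is filled, at 2.02 and 2.36, and with LPS the points run from −5.47 for Mrc1 to 5.58 for Clec4e in AhR-KO cells.

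Of the 4 Dectin family lectins among the receptors, Clec4e moved most with LPS. It encodes Mincle, which binds mycobacterial cord factor and a protein released by dead cells (ENSMUSG00000030142, chromosome 6, 123281789 to 123289870, minus strand). Unstimulated cells had 70.0, 85.8 and 190 CPM (lowest, median, highest) in WT and 62.1, 102 and 135 in AhR-KO, and LPS-stimulated cells 2023, 2667 and 5529 in WT and 3255, 4610 and 6623 in AhR-KO. Every LPS library lay above every unstimulated library, with no overlap. The log2 fold change by LPS was 5.07 in WT (standard error 0.34, adjusted p = 5.4e-11) and 5.58 in AhR-KO cells (standard error 0.35, adjusted p = 7e-12), and the responses differed by 0.51 (interval −0.34 to 1.36, adjusted p = 0.78). By genotype Clec4e differed by 0.01 without LPS (interval −0.59 to 0.61, adjusted p = 1.0) and by 0.52 with it (interval −0.08 to 1.12, adjusted p = 0.31).

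Clec4d, the Mincle partner also called Dectin-3 or MCL (ENSMUSG00000030144, chromosome 6, 123262111 to 123275265, plus strand), rose as well. It had 84.4, 107 and 321 CPM in unstimulated WT and 77.0, 125 and 200 in unstimulated AhR-KO cells, and 545, 776 and 2162 in WT and 443, 535 and 1328 in AhR-KO after LPS. No library of one state overlapped the other within a genotype. The log2 fold change by LPS was 2.80 in WT (standard error 0.41, adjusted p = 6.4e-06) and 2.37 in AhR-KO cells (standard error 0.40, adjusted p = 3.2e-05). Genotype differences were −0.08 without LPS (interval −0.87 to 0.71, adjusted p = 1.0) and −0.51 with it (interval −1.30 to 0.28, adjusted p = 0.52). The sign of the first of these turned without WT library 33, to 0.35.

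Clec4n, which encodes Dectin-2, a receptor for fungal mannans (ENSMUSG00000023349, chromosome 6, 123229843 to 123247021, plus strand), stood beside these genes but was not called. It had 1159, 1688 and 3317 CPM in unstimulated WT and 1863, 2242 and 4266 in unstimulated AhR-KO cells, and 1825, 2164 and 5268 in WT and 1968, 2390 and 7073 in AhR-KO after LPS. All 4 ranges overlapped. The log2 fold change by LPS was 0.64 in WT (interval −0.09 to 1.37, adjusted p = 0.16) and 0.32 in AhR-KO cells (interval −0.40 to 1.05, adjusted p = 0.49). By genotype it was 0.57 without LPS (interval −0.15 to 1.30, adjusted p = 0.59) and 0.25 with it (interval −0.47 to 0.98, adjusted p = 0.81). Over the 37 other fits the adjusted p ran from 2.31e-05 to 0.445 by LPS in WT. By genotype without LPS it ran from 0.000759 to 0.783. Both of these differences stayed positive and under the fold threshold in those fits.

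Clec4n, Clec4d and Clec4e follow each other on chromosome 6 within 60.0 kb, from 123229843 to 123289870, with no other annotated gene between them. The nearest protein-coding gene on the Clec4n side is Clec4b2, a lectin at 2.80 CPM in unstimulated WT and 0.325 in AhR-KO cells, called lower in AhR-KO without LPS (log2 fold change −3.10, adjusted p = 0.0079) and with it (−2.33, adjusted p = 0.033). The 4 neighbours thus differed in their calls, with Clec4b2 called by genotype, Clec4d and Clec4e by LPS, and Clec4n by neither at the fold threshold.

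The start regions of Clec4e and Clec4d are printed because these neighbours rose with LPS by different folds. The Clec4e window is chr6:123289822-123290121 on the minus strand and the Clec4d window chr6:123261857-123262156 on the plus strand (RefSeq, GRCm38.p6), from 250 bases before to 50 after the start, with motif matches in capitals.
Clec4e: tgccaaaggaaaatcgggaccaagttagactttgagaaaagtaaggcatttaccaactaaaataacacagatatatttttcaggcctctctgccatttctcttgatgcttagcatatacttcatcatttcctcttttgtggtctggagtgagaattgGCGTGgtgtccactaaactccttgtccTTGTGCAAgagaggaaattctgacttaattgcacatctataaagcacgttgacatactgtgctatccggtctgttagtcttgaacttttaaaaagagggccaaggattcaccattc
Clec4d: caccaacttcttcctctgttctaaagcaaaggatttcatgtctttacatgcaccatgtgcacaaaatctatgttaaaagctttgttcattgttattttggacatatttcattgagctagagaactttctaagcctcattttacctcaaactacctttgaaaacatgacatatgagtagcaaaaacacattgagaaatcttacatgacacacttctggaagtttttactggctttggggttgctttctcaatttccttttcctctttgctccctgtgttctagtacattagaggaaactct

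In Clec4e the capitals mark GCGTG at −93 and TTGTGCAA, a match on the opposite strand to the C/EBP pattern, at −66 from the start site, and these do not overlap. The Clec4d window held none of the 6 motifs. Among the 8 receptor promoters, GCGTG or its complement was in 2 (Clec4e and Mertk), the NF-κB pattern in 4 and the C/EBP pattern in 1.

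Clec7a encodes Dectin-1, the receptor for fungal β-glucan (ENSMUSG00000079293, chromosome 6, 129461591 to 129472779, minus strand), and GENCODE M21 files it as a polymorphic pseudogene. Its level was 872, 1474 and 1903 CPM (lowest, median, highest) in unstimulated WT and 1425, 1895 and 2968 in unstimulated AhR-KO cells. After LPS it was 2667, 3948 and 7313 CPM in WT and 3986, 6136 and 9113 in AhR-KO. LPS raised it without overlap by 1.62 in WT (standard error 0.27, adjusted p = 4.4e-05) and by 1.55 in AhR-KO cells (standard error 0.27, adjusted p = 5.3e-05), and the responses differed by −0.06 (interval −0.85 to 0.72, adjusted p = 1.0). Genotype differences of Clec7a were 0.58 without LPS (interval 0.03 to 1.14, unadjusted p = 0.04, adjusted p = 0.31) and 0.52 with it (interval −0.04 to 1.07, adjusted p = 0.26). All 3 runs gave a positive difference, of 0.41 to 0.66 in unstimulated and 0.44 to 0.64 in LPS-stimulated cells.

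Mertk (ENSMUSG00000014361, chromosome 2, 128698956 to 128802894, plus strand, overlapped by Gm23172 on the same strand and Gm14011 on the other) was not called in any comparison of the main model. It had 17.8, 37.8 and 59.4 CPM in unstimulated WT and 23.4, 62.0 and 73.9 in unstimulated AhR-KO cells, and 10.5, 30.3 and 48.0 in WT and 13.9, 28.1 and 38.6 in AhR-KO after LPS. The log2 fold change by LPS in AhR-KO cells was −0.98 (interval −1.73 to −0.22), with an adjusted p of 0.032 but a fold under the threshold. With run as a factor it was called, at −1.005 (adjusted p = 0.00335), as it was in 7 of the other fits. In WT it was −0.44 (interval −1.19 to 0.30, adjusted p = 0.37), and the difference of these responses was −0.53 (interval −1.59 to 0.53, adjusted p = 0.87). By genotype Mertk differed by 0.46 without LPS (interval −0.29 to 1.21, adjusted p = 0.79) and by −0.07 with it (interval −0.82 to 0.68, adjusted p = 0.97).

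Over the 9 tested receptors, 0 had a called interaction of genotype and LPS in edgeR, where 4.3% of all tested genes were called (1.95% higher, 2.34% lower) at an adjusted p of at most 0.05. At an unadjusted p under 0.05 there was 1, Msr1, and DESeq2 and limma-voom called 0. Libraries of the LPS and unstimulated groups did not overlap in 6 of the 9 in WT and 7 of the 9 in AhR-KO cells, beside 22.4% and 28.5% of all tested genes.

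Levels were compared between receptors after division by the summed length of their exons, which need not be the length of the transcripts present. This division does not remove the length slope, which was −0.296 to 0.312 over the libraries, so the order is approximate. In unstimulated WT cells Clec4n was highest, with a median of 1189 CPM per kb, before Clec7a with 559, and these ranges did not overlap. Clec4d followed with 67.1, Msr1 with 42.8, Mrc1 with 31.8, Clec4e with 17.3, Cd36 with 16.8 and Mertk with 8.71 CPM per kb, and from Msr1 to Mertk each range overlapped the next. Stab1 at 0.405 and Cd163 at 0.0227 stood below without overlap. Cd36 was number 7 of 10 in unstimulated WT and number 5, at 65.8 CPM per kb, in unstimulated AhR-KO cells, and number 6 and number 5 after LPS, at 67.1 and 319. Clec4e stood at number 6 and 7 without LPS and at number 3 with it in both genotypes, at 537 and 928 CPM per kb, where its range overlapped that of Clec4d. Mrc1 went from number 5 and 4 to number 9 of 10, at 1.27 and 1.08 CPM per kb, overlapping Stab1. After LPS Clec7a and Clec4n were the highest in both genotypes and overlapped, with medians of 1496 and 1524 CPM per kb in WT and 2326 and 1683 in AhR-KO.

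**Figure D3:**
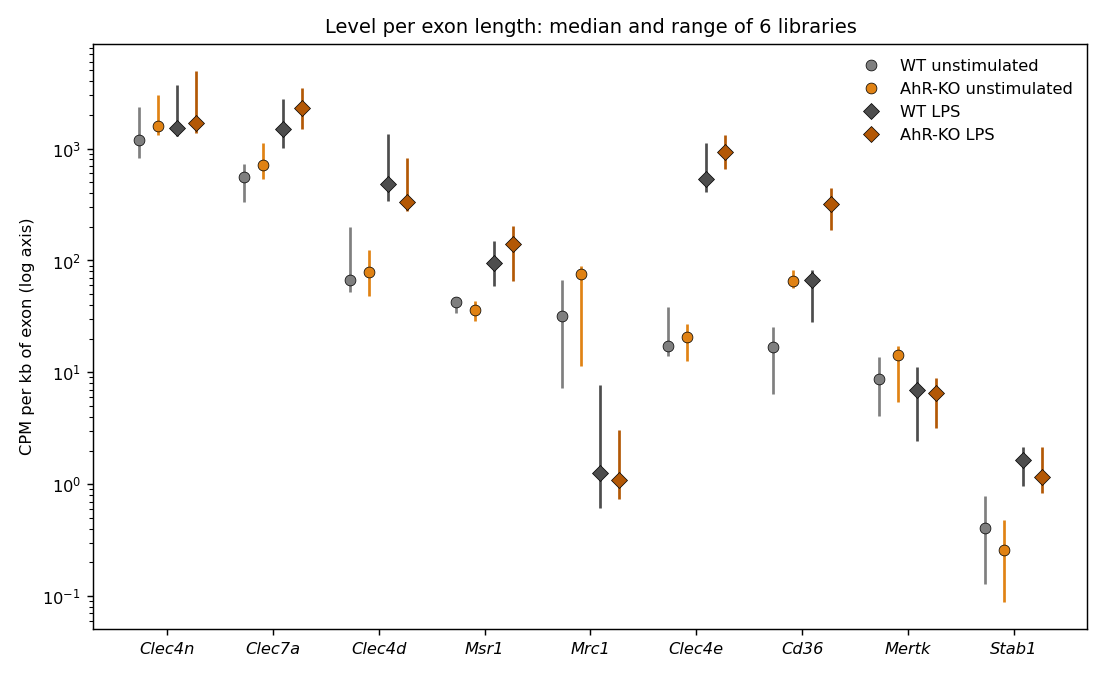
Median and range over 6 libraries of each receptor's level per length of exon, in CPM per kb on a log axis, by group. Cd163, with a median of 0.0268 or less, is not drawn. Cd36 rises from 16.8 in unstimulated WT to 319 in LPS-stimulated AhR-KO cells, and Mrc1 drops from 31.8 and 75.3 to 1.27 and 1.08.

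Within groups, several receptors stood at an extreme in the library of lowest length slope. In these libraries Clec4n and Clec4d were at their highest in 4 of 4 groups and Clec7a and Clec4e in 3 of 4, while Mrc1 and Mertk were at their lowest in 3 of 4. Clec4n had 3317, 4266, 5268 and 7073 CPM in these libraries (33, 19, 37 and 39), and at most 1944, 3809, 3771 and 4498 in the other libraries of the groups. Cd36 was within the range of the others in both WT groups and highest in both AhR-KO groups, at 293 and 1581 CPM beside at most 264 and 1314. Neutrophil markers also summed highest in 3 of these libraries, with 12716 CPM in library 33 (next highest of the group 5015), 8436 in library 37 (next 3617) and 1020 in library 39 (next 384), and all 4 lectins are known from neutrophils too. Their part, and that of the length slope, in the spread of the lectins was not tested. The calls of Cd36, Clec4e, Clec4d, Clec7a, Stab1 and Mrc1 held without the 5 libraries of lowest slope, a choice made after the data were seen.

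**Figure D4:**
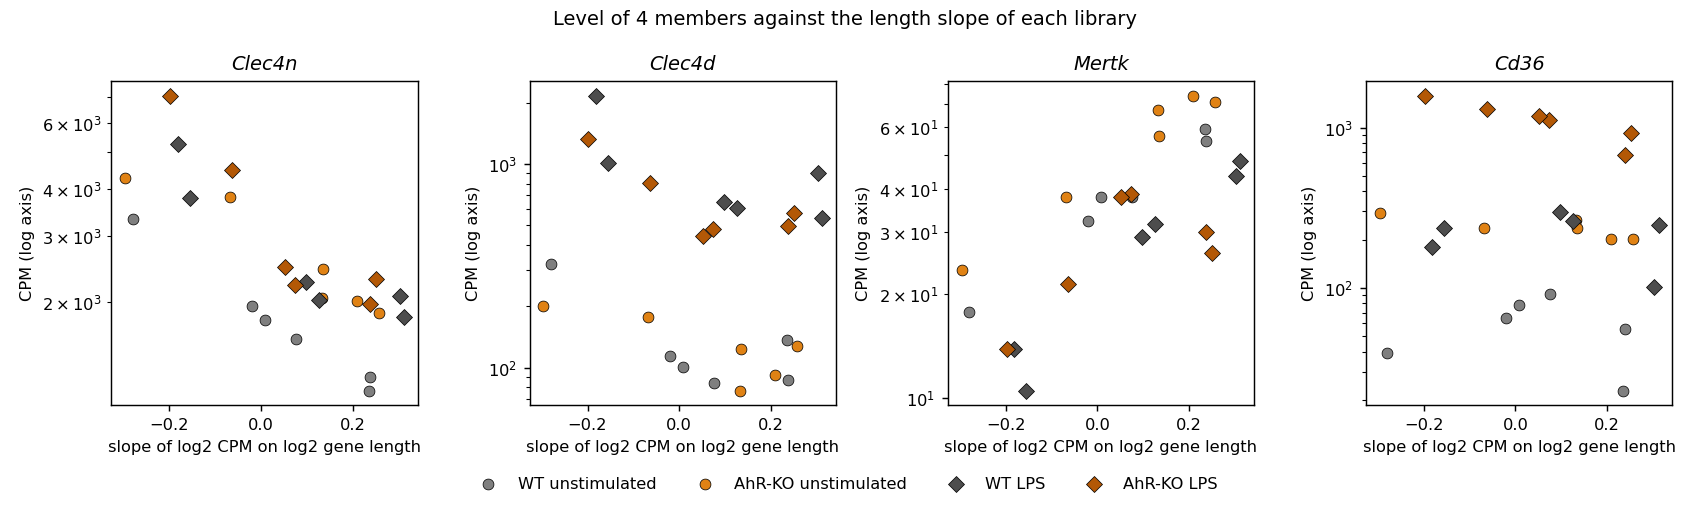
Level in CPM (log axis) of Clec4n, Clec4d, Mertk and Cd36 in each of 24 libraries against the library's slope of log2 CPM on log2 gene length, colored by group. Libraries of low slope are high for Clec4n and Clec4d and low for Mertk, whereas the 4 groups of Cd36 keep their order by genotype.

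Other receptors of the same classes were examined as lists. Of 15 other scavenger receptors, 10 were tested and 0 were called by genotype in either state by edgeR, DESeq2 or limma-voom, with 4 at an unadjusted p under 0.05 without LPS and 2 with it, beside 4.48% and 8.36% of all tested genes called. Olr1, the lectin-like receptor for oxidised lipoproteins, had 133 and 184 CPM without LPS and 411 and 640 with it in WT and AhR-KO, where the adjusted p after LPS was 0.026 but the log2 fold change of 0.64 was under the threshold. LPS raised 3 and lowered 1 of the 10 in WT and raised 3 and lowered 3 in AhR-KO cells. The shares of all tested genes were 13.2% higher and 11.8% lower in WT and 15.1% and 15.7% in AhR-KO. DESeq2 called 2 lower in WT, and limma-voom 2 lower in AhR-KO cells, where it did not call Colec12 (adjusted p = 0.0825). The 3 that rose were Cxcl16, a transmembrane chemokine that binds oxidised lipoproteins (log2 fold change 3.17 in WT and 3.32 in AhR-KO), Scarf1 (2.15 and 2.26) and Olr1 (1.62 and 1.80). Scarb1, the receptor for high-density lipoprotein and like Cd36 of class B, fell, with log2 fold changes of −1.43 and −1.80.

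Among 25 other C-type lectin receptors, 18 were tested, and without LPS 2 were called higher and 3 lower in AhR-KO cells, beside 0.916% and 3.57% of all tested genes. DESeq2 called 3 higher and 3 lower, and limma-voom 4 and 3. Cd207 (langerin, of Langerhans and other dendritic cells) had 35.4 CPM in WT and 0.0384 in AhR-KO (log2 fold change −9.67, adjusted p = 1.1e-05). Clec9a and Clec4a3 were higher, by 1.34 (adjusted p = 0.0046) and 1.02 (adjusted p = 0.048). After LPS 0 of the 18 were called higher and 3 lower by edgeR, beside 2.17% and 6.19% of all tested genes, while DESeq2 called 0 higher and 4 lower, limma-voom 0 and 3, and 10 had an unadjusted p under 0.05. They were Clec4b2, Cd207 (2.93 CPM in WT, no count in AhR-KO) and Clec4a1, a lectin of the Dcir family, at 16.4 and 6.62 CPM (−1.31, adjusted p = 0.0083). LPS lowered 8 and raised 2 of these 18 lectins in WT, and lowered 10 and raised 3 in AhR-KO, beside 11.8% lower and 13.2% higher of all tested genes in WT and 15.7% and 15.1% in AhR-KO. Mgl2 and Clec10a, galactose lectins which like Mrc1 mark alternatively activated macrophages, fell, with log2 fold changes of −4.22 in WT and −3.45 in AhR-KO for Mgl2 and −3.14 and −4.06 for Clec10a. Clec4a1 rose by 5.37 and 3.92. The interaction was called for 3 of 18, beside 4.3% of all tested genes, Clec9a (−2.30), Clec4a3 (−1.79) and Clec2d (1.0).

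The list of signalling genes behind the lectins, 23 of 23 tested, also holds cytokines, among them Il6, Il23a, Tnf and Il10. In edgeR it showed 1 call by genotype without LPS, lower, and 3 after LPS, all higher. Of all tested genes, 4.48% and 8.36% were called in either direction. After LPS DESeq2 called 3 of the list higher and 1 lower, and limma-voom 3 and 0. The part of the lectins in the cytokine levels was not tested. The call without LPS was Il23a, near 0 in both genotypes (0.0568 and 0.00276 CPM), and limma-voom did not make it. Those after LPS were Il6 at 587 and 1909 CPM (log2 fold change 1.70, adjusted p = 0.0015), Il23a at 7.84 and 25.1 (1.68, adjusted p = 0.016) and Egr2 at 40.2 and 87.7 (1.12, adjusted p = 0.0083). Syk, the kinase that the lectins share, had 72.3 and 121 CPM without LPS and 172 and 175 with it and was not called in any comparison, a gene named after its values were seen. LPS raised 7 and lowered 2 of the 23 in WT and raised 7 and lowered 1 in AhR-KO, beside 24.9% and 30.8% of all tested genes called. Tnf rose by 3.75 and 5.01, a difference of 1.26 (adjusted p = 0.023), and Il6 by 8.44 and 11.16, a difference of 2.71 (adjusted p = 0.002). Of these differences limma-voom called that of Il6 (adjusted p = 0.00329) and neither that of Tnf (adjusted p = 0.108) nor that of Il23a (adjusted p = 0.136), which edgeR called too. Il10, without a count in the 12 unstimulated libraries, reached 2.80 CPM in WT and 2.46 in AhR-KO.

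Ligands and partners of Mertk were on the list of 28 genes for uptake of apoptotic cells, of which 24 were tested. By genotype 1 was called higher and 1 lower without LPS, and 1 higher and 2 lower with it, beside 4.48% and 8.36% of all tested genes called in either direction. Mfge8, a bridge from phosphatidylserine to integrins, had 1433 CPM in WT and 99.6 in AhR-KO without LPS (log2 fold change −3.85, adjusted p = 1.7e-06) and 840 and 12.4 with it (−6.09, adjusted p = 6.9e-09), and the difference of these, −2.24, had an adjusted p of 0.018. Pros1, a ligand of Mertk, was higher in AhR-KO, at 41.3 and 118 CPM without LPS (1.52, adjusted p = 4e-06) and 7.19 and 27.1 with it (1.92, adjusted p = 1.1e-07). C1qa was lower after LPS, at 6.32 and 1.17 CPM (−2.44, adjusted p = 0.031), with overlapping ranges, and limma-voom did not call it (C1qa adjusted p = 0.335). With LPS the log2 fold change of Pros1 was −2.52 in WT and −2.12 in AhR-KO, and LPS raised 4 and lowered 6 of the 24 in WT (2 and 6 in limma-voom) and raised 5 and lowered 7 in AhR-KO, beside 24.9% and 30.8% of all tested genes called. Abca1, the cholesterol exporter, was among those that rose, by 4.03 and 2.82.

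Transcription factors and proteases known to act on these receptors, 17 of 17 tested, had 0 calls by genotype without LPS in edgeR, DESeq2 or limma-voom, with 1 at an unadjusted p under 0.05, beside 4.48% of all tested genes called. After LPS 1 was called higher, beside 2.17% of all tested genes, namely Irf4, at 145 and 297 CPM (log2 fold change 1.03, adjusted p = 0.025). DESeq2 called Irf4 too, and in limma-voom its fold, 0.99, was under the threshold. Pparg, which drives Cd36 in macrophages, had 78.5 and 88.5 CPM in unstimulated WT and AhR-KO cells (difference 0.17, adjusted p = 0.96) and 27.1 and 19.1 after LPS (−0.51, adjusted p = 0.097). With LPS it fell in both genotypes (log2 fold changes of −1.53 and −2.21, both called). The part of Pparg in the level of Cd36 was not tested. Pparg is named after its values were seen. In each genotype LPS raised 3 and lowered 6 of the 17, beside 24.9% of all tested genes called in WT and 30.8% in AhR-KO. Maf rose by 3.35 and 4.80, and Klf4 (−3.20 and −3.22) and Rxra (−2.10 and −2.46) fell.

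Genes with the most similar course over the 24 libraries were found by the root mean square difference of log2(CPM + 0.5), each centred on its mean, among 12702 genes. Nearest to Cd36 were Cbln1 (0.51), the long non-coding RNA Gm2694 (0.65) and Dcstamp (0.68), beside a spread of Cd36 around its own mean of 1.61. Cbln1 had 2.37, 19.1, 17.6 and 64.5 CPM in unstimulated WT, unstimulated AhR-KO, LPS-stimulated WT and LPS-stimulated AhR-KO cells, and Dcstamp, a fusion receptor of osteoclasts and giant cells, 103, 239, 664 and 1712. Mrc1 lay nearest to Kif20a (0.53), Prc1 (0.61) and Kif23 (0.64), genes of the dividing spindle, with Kif20a at 28.9, 40.1, 0.812 and 0.284 CPM. Clec4e was nearest to Procr (0.53), Ccrl2 (0.54) and Tlr1 (0.59), Clec4d to Mfsd4b3 (0.31) and Adora2b (0.40), and Msr1 to Mcoln2 and Gsdmd (both 0.26) and Pilra (0.30). For Stab1 these were Stk38l (0.32), the processed pseudogene Gm7451 (0.41) and Antxr2 (0.41). Clec7a was nearest to Prdx1, Gm21399 and Gm7204 (each 0.26), of which the latter are processed pseudogenes that may share reads with a parent gene. Clec4n lay nearest to Slc35b3 (0.19), Gt(ROSA)26Sor and Srd5a3 (both 0.22), and Mertk to Gtf2h1 (0.18), Wdr91 (0.23) and P2rx7 (0.24). These distances follow the library differences described above as well as the groups, and they are descriptions without a test.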

How the data were processed

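Poly(A) RNA of 24 BMDM libraries was prepared with a directional kit and sequenced. The authors used GSNAP for alignment to mm10 and featureCounts for counting unique alignments per Ensembl gene (version 2.0.1, with reads demultiplexed with bcl2fastq 2.20.0, per the submitters' processing notes), and the deposited values are raw counts per gene. Strand use in counting is not given in the sources used here, so reads of overlapping genes on opposite strands may be shared. Of its rows, 55421 were genes and 92 were spike-ins, left out here with a sum of 1 count. Totals of 45106052 to 76992663 counts a library gave TMM factors of 0.704 to 1.30.

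Counts were filtered with filterByExpr and fitted in edgeR 4.0.16 (R 4.3.3) with 1 model of all 4 groups, the robust quasi-likelihood F-test and Benjamini-Hochberg adjustment over 16593 genes. The common biological coefficient of variation was 49.1%. The procedure was tested on simulated data. Alternatives were DESeq2 1.42.0, limma-voom (limma 3.58.1), other scaling and filters, covariates for run, length slope and Y-linked counts, fewer libraries, and each library left out.

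The 10 receptors, the other gene lists and the markers were chosen with earlier results of these data known. Named from other lists were, for each comparison, up to 4 called genes of largest change whose mean reached 1 CPM, and for each receptor the 3 nearest genes by pattern. Cell type markers are named as such, and Syk and Pparg were named after their values were seen. Some genes that the rule names are not reported here. Gene positions are those of mm10.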

Additional observations from a re-analysis of the deposited data

Results flagged for a closer look

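Of 38 sets of 6 libraries (a receptor in a group) examined for a single library far from the others, 5 held one by Dixon's 95% criterion for the gap to the nearest library, and chance alone gives about 1 in 20. Mrc1 was 48.85 CPM in WT LPS library 29, where the next highest library had 11.11. In WT unstimulated library 33, Clec4n was at 3317 CPM (next 1944), Clec4e at 189.7 (next 97.59) and Clec4d at 320.9 (next 137.2). Clec4d was 2162 CPM in WT LPS library 37, with 1013 in the next. Libraries 33 and 37 had the lowest length slope and the highest sum of neutrophil markers of their groups, and the part of either was not tested.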

How the results depend on the processing

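Both genotype calls of Cd36 and the LPS calls of Cd36, Clec4e, Clec4d, Clec7a, Stab1 and Mrc1 in each genotype held in all 37 other fits. Msr1 in WT with LPS lost its call with total library size (0.818) and without the 5 libraries of low length slope (0.906), as the fold fell under the threshold. Mertk with LPS in AhR-KO cells gained a call with total library size (−1.462), with run as a factor (−1.005), with only the 12 libraries compared (−1.007) and without the 5 libraries (−1.047), and without AhR-KO library 19, 23, 24 or 35 (to −1.131). The interaction of genotype and LPS had 1 call, Mrc1, with the first residual component (added after the data were seen, as were both fits without the 5 low-slope libraries and without the libraries lacking Y-linked counts). Signs turned only where no call was made. For Clec4e by genotype without LPS the value was −0.044 with total library size, −0.068 without the libraries lacking Y-linked counts and −0.086 to 0.298 with each library left out. For Clec4d it was 0.017 in limma-voom, 0.024 with run, 0.028 with length slope, 0.202 without the 5 libraries and −0.233 to 0.346 with each left out. For Mertk by genotype after LPS it was 0.012, 0.048 and 0.169 in the same first 3 fits, 0.093 with the residual component and −0.256 to 0.124 with each left out. Leave-one-out ranges after LPS were −1.041 to 0.274 for Mrc1 (0.274 without WT LPS library 29) and −0.098 to 0.517 for Clec4n (−0.098 without AhR-KO LPS library 39) by genotype. For Clec4n with LPS in AhR-KO cells the value was −0.17 with total library size and −0.018 to 0.503 with each left out. The Clec7a interaction was 0.005 without the libraries lacking Y-linked counts, 0.242 without the 5 libraries and −0.21 to 0.138 with each left out. Leaving out each library in turn gave 1 to 1 receptors called by genotype in each state, 7 to 8 and 7 to 9 with LPS in WT and AhR-KO, and 0 to 0 for the interaction. The calls gained with LPS were those of Cd163, lower in both genotypes and kept by the filter in those fits, and of Mertk in AhR-KO cells. The causes were not tested. Total library size moved the median of all tested genes from −0.05 to −0.26 by genotype after LPS, from 0.03 to −0.31 with LPS in WT and from −0.03 to −0.52 in AhR-KO cells. Genes called higher and lower were then 236 and 1351 (main 360 and 1027), 1622 and 3163 (main 2186 and 1951) and 1730 and 4398 (main 2504 and 2601), and for the interaction 252 and 550 (main 324 and 389). Over all genes, calls numbered 2096 against 1387 by genotype after LPS and 6305 against 4137 with LPS in WT without a minimum fold. The interaction had 713, against 1125 in DESeq2, 1201 with run, 2729 with length slope, 2750 with the residual component and 1127 without the 5 libraries. No paired analysis was made, because each library has a number of its own and the labels do not tie cultures to animals. The tests treat all libraries as unrelated, whether or not cultures with and without LPS share an animal. The fit with run as a factor is not a pairing. Libraries 34 and 38, which lack Y-linked counts, are 4 numbers apart, as are 33 and 37 and 35 and 39, which had the highest neutrophil sums of their groups.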
